A study of Danio rerio with 10 samples.

Results

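The regions described here are sequences taken as the DNA beside the transgene in 7 transgenic zebrafish lines, read directly from adult tail fin DNA. A start was chosen for each line as the commonest first 20 bases of its library that differed by more than 4 edits from the commonest start of the wild-type library, and 2 starts were chosen for the compound line. Every read of 20 bases or more, in any library, that began within 4 edits of one of these 8 starts was counted as a member. This gave 3713 member reads of 163896 reads of that length in 10 libraries. The starts were therefore chosen by read number in these same libraries, so the counts and shares of each flank in its own library are descriptions and carry no test.

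The H2A.Z-mCherry line is Tg(h2ax:h2az2a-mCherry)mw3, in which h2ax sequence drives mCherry joined to H2A.Z, a variant of the core histone H2A. The compound fish carried both mitfa:mCherry and crestin:EGFP, named for mitfa, a melanocyte transcription factor gene, and crestin, a neural crest marker. Tg(sox10:Kaede)zf393 places the photoconvertible protein Kaede under sox10, a gene for a neural crest transcription factor. The 4 remaining lines carry QUAS, the sequence bound by the fungal activator QF, so their QUAS-linked reporters need QF to be expressed. They are c636, which combines QUAS:mApple-CAAX (membrane-bound mApple) with he1.1:mCherry, Tg(QUAS:mApple, he1.1:CFP)c787, Tg(QUAS:GCaMP7a)c594 with a calcium indicator, and Tg(QUAS:GFP, cmlc:GFP)c635. In c636 and c787 the second reporter is named for he1.1, a hatching enzyme gene, and in c635 for cmlc, a heart light chain gene. Libraries of wild-type fish and of Tg(QUAS:GFP)c403 and Tg(QUAS:GFP-CAAX)c591 supplied no start and were only searched for members. Each group was 1 library of DNA from fin clips of adult fish, with no replicate, and the labels do not state the number of fish per library or their allele dose.

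Zebrafish transgenes are commonly carried into the genome by Tol2, a cut-and-paste transposon first found in medaka. Its transposase joins the transposon ends to a chromosome and leaves a short duplication of the target bases, so that the first bases beyond the end mark the site of insertion. TransTag finds that site by cutting genomic DNA with the Tn5 transposase, which adds an adapter at each cut, and by amplifying and sequencing fragments that span from the transgene end into the chromosome. A read thus has a fixed start at the transgene and a variable end at the Tn5 cut. Whether every line here was made with Tol2 is not stated in the labels, and no genome was used, so the flanks are described by sequence and not by chromosome or gene.

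The 8 flanks are printed because they are the sequences that all counts below refer to. Compound B is named for the library with most of its reads, although its share was higher in c787 and c403. Each is the majority base over the reads of its own library, 5′ to 3′ from the first deposited base, and capitals mark the first 8 bases, the length that Tol2 duplicates.
H2A.Z-mCherry: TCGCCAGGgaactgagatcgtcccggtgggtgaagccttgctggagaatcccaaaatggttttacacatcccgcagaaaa
compound A: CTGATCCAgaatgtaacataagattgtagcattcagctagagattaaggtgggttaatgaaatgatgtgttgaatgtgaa
compound B: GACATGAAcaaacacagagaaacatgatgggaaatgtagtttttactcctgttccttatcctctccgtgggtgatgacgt
sox10:Kaede: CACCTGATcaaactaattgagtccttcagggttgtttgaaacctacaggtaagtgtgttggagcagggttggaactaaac
c636: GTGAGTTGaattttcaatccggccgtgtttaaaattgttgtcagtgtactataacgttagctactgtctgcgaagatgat
c787: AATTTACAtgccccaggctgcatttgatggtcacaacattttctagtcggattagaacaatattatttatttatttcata
c594: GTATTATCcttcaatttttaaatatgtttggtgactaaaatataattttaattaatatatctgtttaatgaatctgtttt
c635: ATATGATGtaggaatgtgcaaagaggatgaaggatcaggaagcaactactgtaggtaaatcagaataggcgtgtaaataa

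The flanks had little sequence in common. Over the 28 pairings of the 8 starts, the closest pair was compound B and sox10:Kaede, at 7 edits over 20 bases, and the farthest was H2A.Z-mCherry and c594, at 17 edits. The starts lay 12 to 15 edits from the shared start, the commonest start of the wild-type library. Over their 80 bases no pair, the shared flank included, had an exact stretch longer than 9 bases in common on either strand. No read other than a member held any exact 20-base stretch of a flank, on the same strand or on the opposite strand, in any of the 10 libraries.

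Base composition differed widely between the flanks. The c594 flank had 17.5% GC and a stretch of 25 bases made only of A and T, whereas the H2A.Z-mCherry flank had 52.5% GC and no such stretch over 5 bases. The c787 flank changed along its length, from 42.5% GC in its first 40 bases to 20% in its last 40, and held a stretch of 18 A or T bases near its far end. The H2A.Z-mCherry flank fell in the same direction, from 62.5% to 42.5%. The first 8 bases held 7 A or T in c787, 6 in c594 and c635, 5 in compound B, 4 in compound A, sox10:Kaede and c636, and 2 in H2A.Z-mCherry. None of these 8-base starts was a perfect inverted repeat, and their mismatched base pairs against their own reverse complement numbered 2 to 4 of a possible 4. The dinucleotide CG occurred 4 times in the H2A.Z-mCherry and c636 flanks, 2 times in compound B, 1 time each in c787 and c635, and 0 times in compound A, sox10:Kaede and c594.

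Each flank had its highest read count in the library that supplied its start. The H2A.Z-mCherry flank had 951 of 1101 reads there, or 86.4% (exact 95% interval 84.2 to 88.3%), and the c636 flank had 777 of 984, or 78.96% (76.3 to 81.5%). The c787, c635 and c594 flanks made up 51.1%, 41.3% and 27.9% of reads, from 287, 112 and 180 reads. The compound A and B flanks had 477 and 446 of 15811 reads, or 3.02% (2.76 to 3.30%) and 2.82% (2.57 to 3.09%). The sox10:Kaede flank had 412 of 135580 reads, or 0.304% (0.275 to 0.335%). The sox10:Kaede and compound libraries thus had the most reads and the smallest shares of a flank of their own. Among the remaining lines with a flank here, H2A.Z-mCherry and c636 had the most reads and the largest shares. The shares depended on what was counted. With a 30-base minimum compound A had 5.57%, compound B 5.22% and sox10:Kaede 0.378%, and with each distinct sequence counted once they had 10.97%, 7.0% and 0.954%. With shorter lines counted in the total only, reads of the line's own flank made up 48.7% of all lines in c636, 27.1% in c787 and 14.2% in c594. These values are lower by construction, since shorter lines of the flank were not members. Intervals cover counting error only, because reads are PCR copies and not independent molecules.

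Of the 3713 member reads, 3642 lay in the library of their line and 71, or 1.91%, lay in another. Compound B accounted for 57 of the 71. The wild-type library held 3 member reads among 239, 2 of the sox10:Kaede flank and 1 of H2A.Z-mCherry. For each of the other 6 flanks its count of 0 allows a share of up to 1.26% (3 counts).

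**Figure D1:**
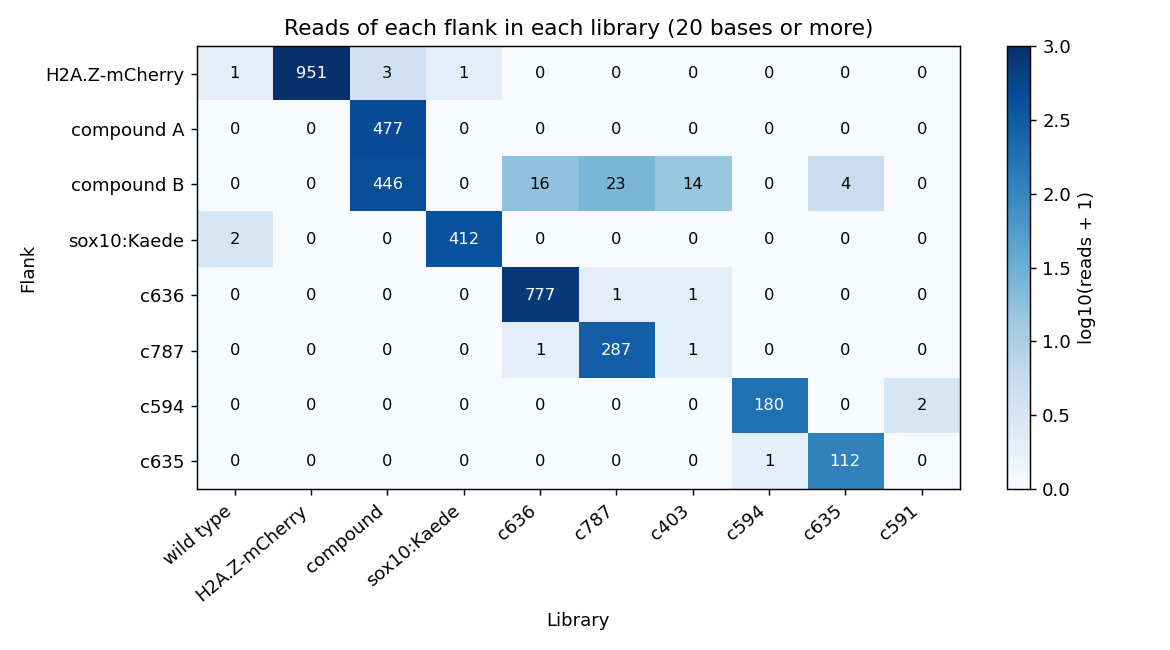
Number of reads of 20 bases or more of each flank (rows) in each of the 10 libraries (columns), with colour giving log10(reads + 1). The 8 large counts, 112 to 951, lie in the library of the flank's line. Compound B is the only flank with more than 3 reads in any single other library.

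Members were chosen by their first 20 bases, so the spread of their starts describes that choice. Within the 7 own libraries, 3377 of 3642 members matched their start exactly, 236 differed by 1 edit, 25 by 2, 3 by 3 and 1 by 4. Just outside the limit, 2 reads at 5 edits and 2 at 6 lay in the library of their flank. Over all libraries, 20 reads lay at 5 or 6 edits, 13 of them from the compound B start and 4 from the sox10:Kaede start. The first 8 bases were exactly those printed above in 97.2% of c787 reads, the lowest of the flanks, and in 99.7% of H2A.Z-mCherry reads, the highest. In 0 reads was the first base missing with the next 12 in place, and in 0 was an extra base added in front. A shift by 1 base lies within the 4 edits allowed and would have been counted. A shift by 2 bases also costs at most 4 edits, but such shifts were not looked for. Reads beyond 4 edits were no members.

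The shared start was left out when starts were chosen. Its flank had more reads than the chosen one in sox10:Kaede (134195), the compound line (14856), c594 (454) and c635 (148), and fewer in c787 (200), c636 (173) and H2A.Z-mCherry (130). Apart from it, the next most frequent start had 102 reads beside 355 in sox10:Kaede, 44 beside 270 in c787, 22 beside 467 and 441 in the compound line, 19 beside 840 in H2A.Z-mCherry and 12 beside 732 in c636. In c635 it had 7 reads beside 105, and in c594 2 reads beside 167. These values describe the choice of starts.

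The far ends of the reads varied. After removal of residual adapter, 1744 of the 3642 members ran to 80 bases or more, taken here as the end of the read. The longest deposited line, in the compound library, had 94 bases. The remaining members were shorter than 80 bases, and whether each ends at a Tn5 cut or was shortened by trimming was not tested. Lengths that at least 2 reads had in common were counted as end positions. The H2A.Z-mCherry and sox10:Kaede flanks each had 22 end positions, c636 had 18, compound A 17, compound B 16, and c787 and c594 had 12 each. The c635 flank had 5, at 26, 36, 40, 57 and 71 bases, counted like the others in reads of 20 bases or more. PCR copies of a fragment stop at the same base, so end positions are at most a rough count of separate fragments, and reads far outnumbered them in every flank.

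The spread of the shorter reads over end positions differed between flanks. For compound B, 257 reads of 20 bases or more fell short of the end. Of these, 189, or 73.5%, stopped after 49 bases, and the second position had 8 reads. In the other 7 flanks the commonest position held 17.3% to 36.6% of such reads. Compound A, from the same library, also stopped most often after 49 bases, but with 35 of 202 reads, or 17.3%, followed by 28 reads at 43 bases. Among reads of 20 bases or more, the c594 flank stopped most often after 35 bases (46 of 143 reads), c636 after 27 (104 of 371) and c787 after 58 (42 of 167). The sox10:Kaede flank was spread more evenly, with 46 reads at 34 bases and 32 at 64. The H2A.Z-mCherry flank had its commonest ends nearest the transgene, with 124 reads at 20 bases and 96 at 23, so that the 20-base minimum cuts through its distribution. It does so in c594, c787, c635 and compound B too. With exact beginnings of 8 to 19 bases counted, the commonest end was at 9 bases in c594 (347 lines) and at 18 in c787 (154 lines). It stayed where it was in the other 6 flanks, but compound B then had a second common end at 15 bases (119 lines). The c635 flank then had 24 lines at 16 bases, beside 26 at 71. In c594 the 347 lines outnumbered its 143 shorter reads above the minimum. The contrast between compound B and the other flanks is thus given for reads of 20 bases or more only. The 2 compound flanks, with similar read totals, therefore differed in how reads were spread over end positions.

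**Figure D2:**
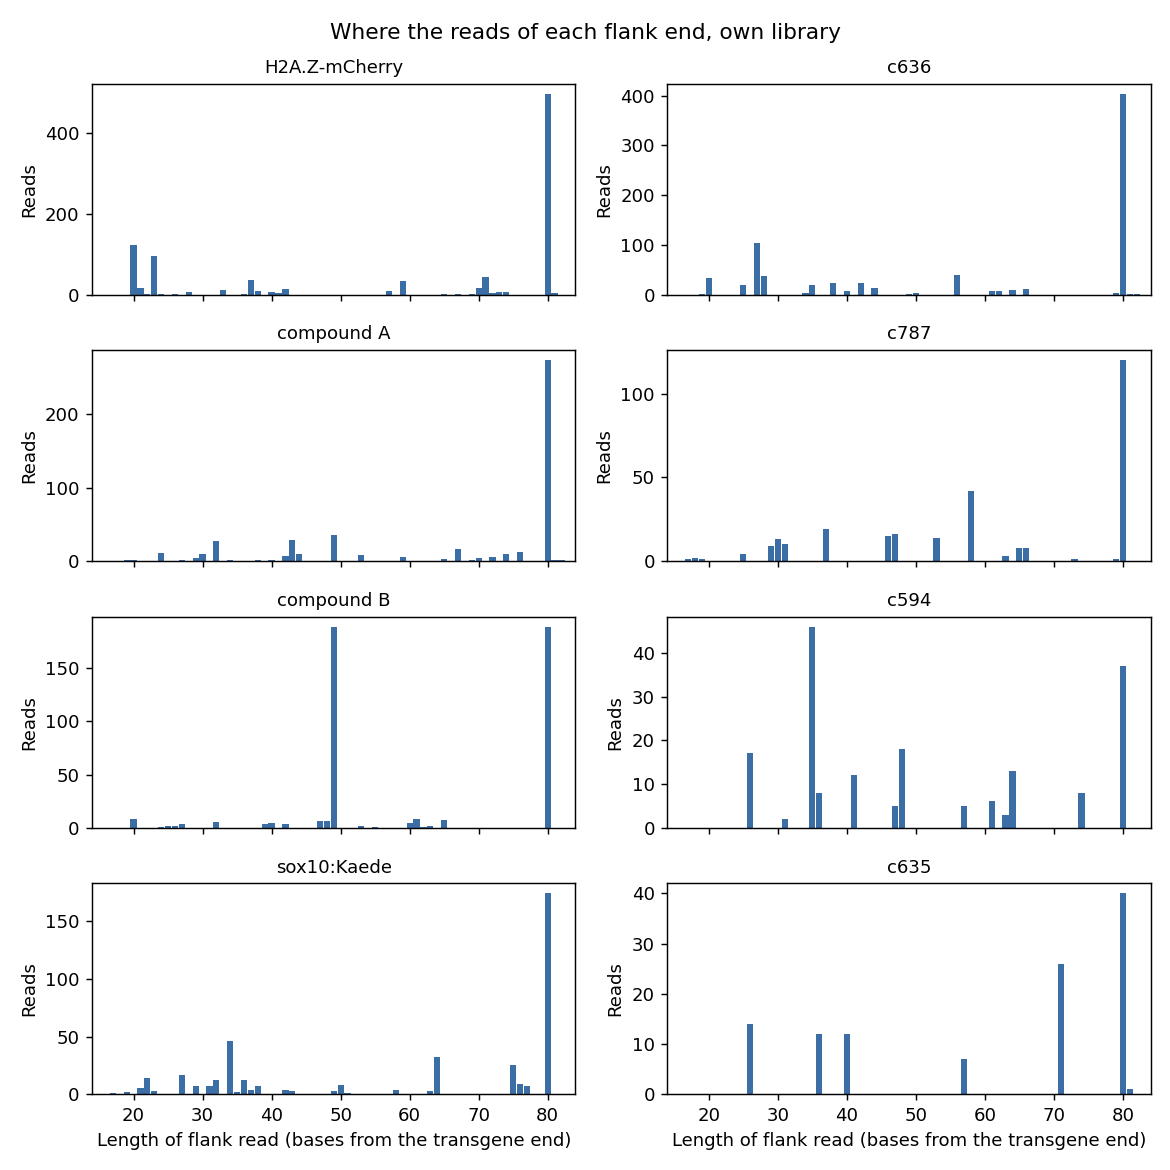
Number of reads of each flank by read length in bases from the transgene end, in the library of its line, after removal of residual adapter. The bar at 80 is taken as the end of the read, and compound B has 189 reads at 49 bases whereas compound A has 35 there.

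Among reads of 20 bases or more, a larger share of own-flank than of shared-flank reads ran to the end in each of the 7 libraries. In c636, 52.3% of own-flank reads ran to the end (48.7 to 55.8%), against 9.25% of 173 shared-flank reads (5.38 to 14.6%). In c635 the values were 36.6% (27.7 to 46.2%) and 2.70% (0.74 to 6.78%), and in c787 they were 41.8% (36.0 to 47.8%) and 9.0% (5.42 to 13.9%). In the compound line flank A had 57.7% (53.1 to 62.1%) and flank B 42.4% (37.7 to 47.1%), against 21.1% (20.4 to 21.8%) for the shared flank. In H2A.Z-mCherry the values were 52.8% (49.6 to 56.0%) and 29.2% (21.6 to 37.8%). In sox10:Kaede they were 42.2% (37.4 to 47.2%) and 29.0% (28.8 to 29.2%). The gap was narrowest in c594, with 20.6% (14.9 to 27.2%) and 11.01% (8.29 to 14.3%). The counting intervals of own and shared flank were apart for all 8 flanks, but no test was made, since each line has 1 library. The direction turned in c594 when exact beginnings of 8 to 19 bases were counted, an alternative chosen after seeing the data. Own-flank lines then ran to the end in 37 of 625, or 5.92% (4.202 to 8.07%), and shared-flank lines in 50 of 557, or 8.98% (6.74 to 11.7%). In c787 the own share fell to 23.1% and in compound B to 31.5%, against 6.82% and 20.6% for the shared flank. Counting each distinct sequence once, the own flank exceeded the shared one by 39.0 percentage points in c636, 33.6 in c635, 14.7 in c787, 13.8 in c594, 11.4 in H2A.Z-mCherry, 3.54 in compound A and 0.56 in sox10:Kaede. Compound B was then lower than the shared flank, at -16.7 points. The shared flank was defined by the same start in every library. Among reads of 20 bases or more, its commonest end was at 21 or 28 bases in all 7. This leaves out its exact beginnings of 8 to 19 bases, which in c636 were 145 of 318 shared-flank lines.

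**Figure D3:**
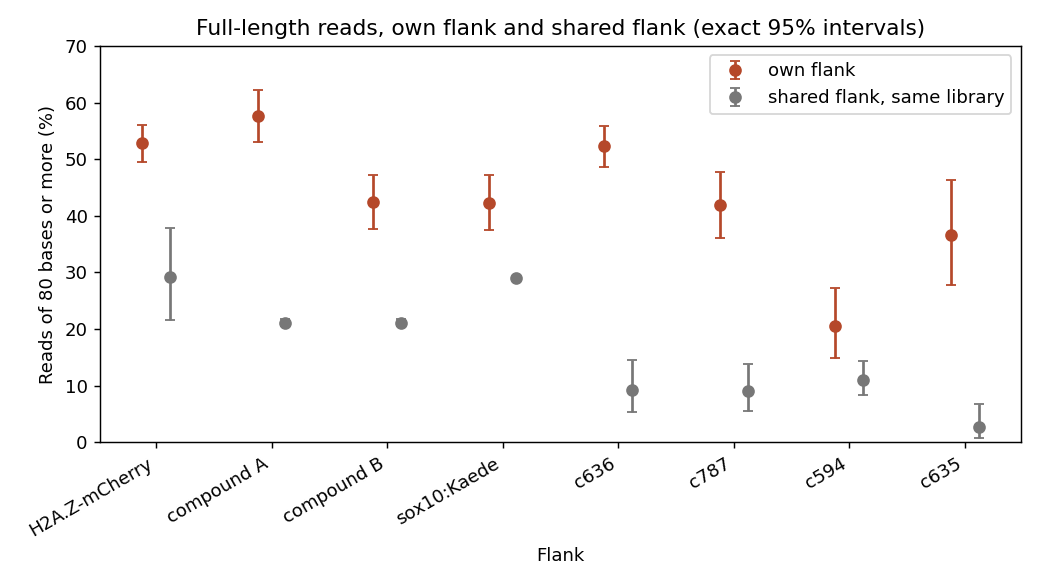
Percentage of reads that run to 80 bases or more for each own flank and for the shared flank of the same library, with exact 95% intervals for counting error. Own flanks lie between 20.6% and 57.7% and the shared flank between 2.70% and 29.2%.

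Reads of a flank were nearly uniform in sequence. Bases matched the consensus in 99.9% of 27413 positions read for compound B, the highest, and in 99.1% of 24662 for sox10:Kaede and 99.1% of 46107 for c636, the lowest. Beyond base 20, which the choice of members did not use, the match, without reads that differed by more than 8 edits, ranged from 99.1% in sox10:Kaede to 99.9% in compound B. Reads identical to the consensus over their whole length made up 94.6% of compound B, 92.7% of c787, 88.3% of c594, 85.4% of H2A.Z-mCherry, 83.9% of c635, 81.3% of compound A, 80.1% of c636 and 66.0% of sox10:Kaede. Distinct sequences were correspondingly numerous in sox10:Kaede, with 2.88 reads each, against 13.03 reads each in H2A.Z-mCherry.

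Only c636 held reads that left the consensus altogether. Of its 777 reads, 5 differed from it by more than 8 edits over their length, at 13 to 28 edits. Of these, 2 were copies of the same sequence, which matched the flank up to base 27 and then continued differently to 80 bases. Another, of 79 bases, also left the flank after base 27, and 1 left after base 30. For the last read, with 28 edits, the position recorded was base 6. As a member, however, its first 20 bases lay within 4 edits of the start. Base 6 is therefore not where this read left the flank altogether, and that point was not determined. The other 7 flanks had 0 reads that differed by more than 8 edits.

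A few single-base differences recurred. A recurring substitution was taken as one in at least 5 reads and 3% of the reads that cover the base, a threshold set after the values were seen. Substitutions are written with the consensus base, its position from the first base of the flank, and the base in the reads. There were 6 of them: T13G in H2A.Z-mCherry, A39C in compound A, T35G in c636, and A51C, T59G and A74C in sox10:Kaede. A39C was in 54 of 420 reads that cover it, or 12.9% (9.81 to 16.4%), and T13G in 81 of 951, or 8.52% (6.82 to 10.5%). The other 4 were in 3.20% to 5.12% of reads. All 6 were A to C or T to G.

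Pooled over the flanks, these 2 kinds of change were common. In reads with at most 2 differences from their consensus, 395 of 613 substitutions, or 64.4% (60.5 to 68.2%), were A to C or T to G. Without the recurring positions the share was 221 of 438, or 50.5% (45.7 to 55.2%). Of the consensus bases covered by reads within 2 edits, 57.97% were A or T. An A or T can also change to other bases, so this percentage is not an expected share of these 2 kinds. Because reads are PCR copies, the substitutions counted are not separate events. With recurring positions counted, compound B, which had none, had the lowest share, 9 of 28, or 32.1% (15.9 to 52.4%). Shares of single flanks without those positions were not computed.

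A39C in compound A had overlapping intervals in full-length reads and in all shorter reads pooled. It was in 36 of 275 full-length reads, or 13.1% (9.34 to 17.7%), and in 18 of 145 shorter reads that cover it, or 12.4% (7.53 to 18.9%). Of its 54 reads, 47 had no other difference from the consensus.

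For T13G in the H2A.Z-mCherry flank these intervals were apart. It was in 3 of 502 reads of 80 bases or more, or 0.60% (0.12 to 1.74%), but in 78 of 449 shorter reads, or 17.4% (14.0 to 21.2%). Among the shorter reads it depended on length again. It was in 0 of 238 reads of 20 to 25 bases, in 46 of 88 reads of 26 to 42 bases, or 52.3% (41.4 to 63.0%), and in 32 of 123 reads of 43 to 79 bases, or 26.02% (18.5 to 34.7%). The reads with G stopped at 13 positions between 26 and 73 bases, 10 of them with at least 2 such reads, so they did not have a single end in common. At 37 bases, the position with most of them, 19 of 36 reads had G, and at 59 and 71 bases 12 of 33 and 11 of 44 did. Of the 81 reads with G, 77 had no other difference. In the shared flank of this library, base 13 differed in 0 of 130 reads. The length bands were drawn after the values were seen, and a cause was not tested.

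**Figure D4:**
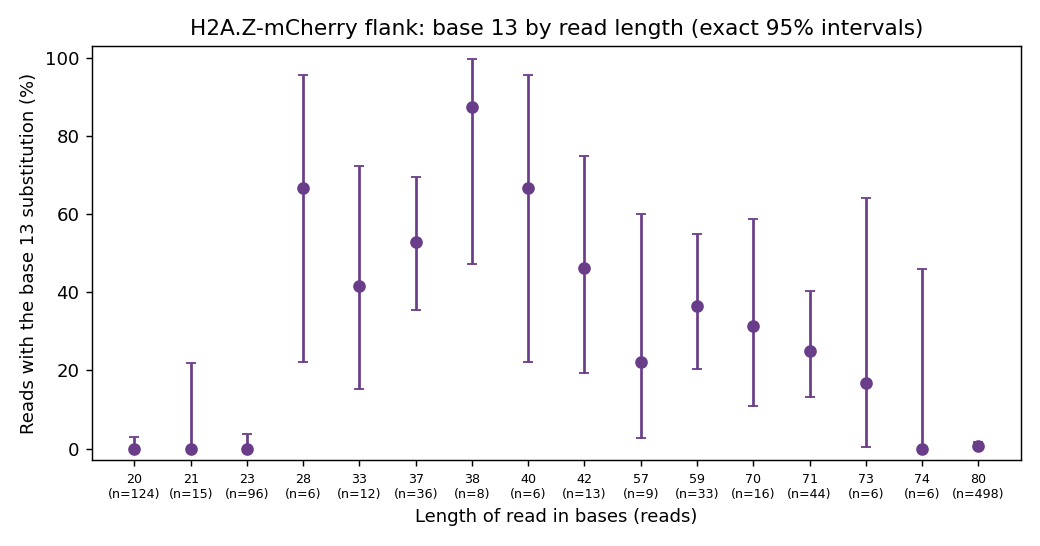
Percentage of H2A.Z-mCherry flank reads that carry the base 13 substitution, for each read length with at least 5 reads, with exact 95% intervals. Reads of 20 to 23 bases and of 80 bases lie at or near 0, and the plotted lengths from 28 to 71 bases lie between 22.2% and 87.5%. The points at 73 and 74 bases, of 6 reads each, lie at 16.7% and 0%.

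**Figure D5:**
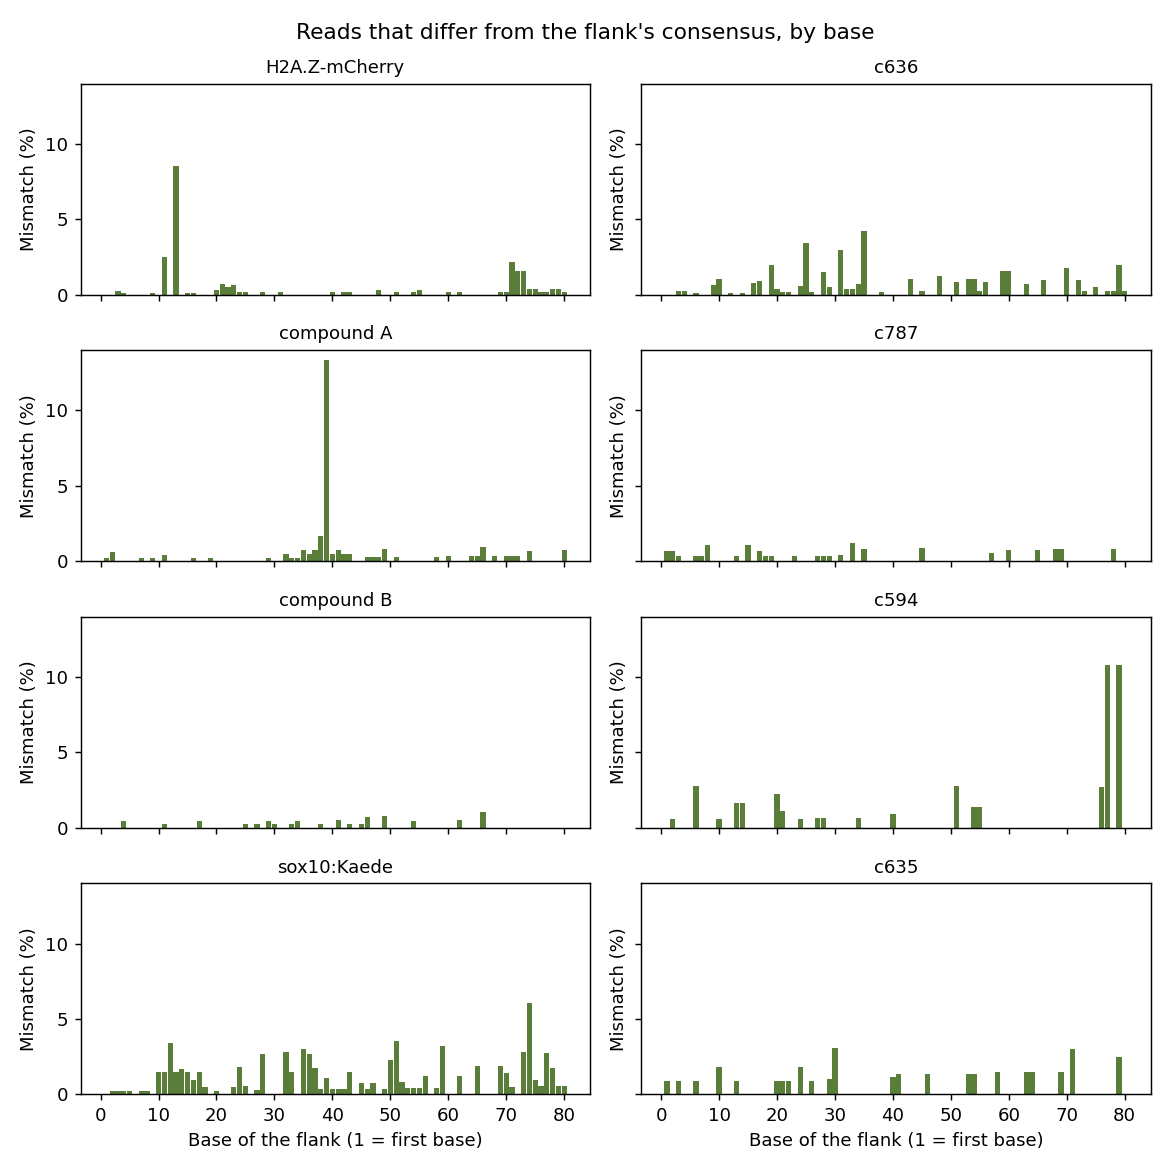
Percentage of reads that differ from the flank's consensus at each base, in the library of the line, without reads that differ by more than 8 edits. The tallest bars are base 39 of compound A at 13.3%, base 13 of H2A.Z-mCherry at 8.52%, and bases 77 and 79 of c594 at 10.8%, where the depth is 37 reads.

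The 71 reads outside their own library could be compared with the own library base by base. Of the 14 reads of flanks other than compound B, 11 were identical to a read of the own library. The H2A.Z-mCherry read in the wild type was 80 bases long and identical to a sequence with 466 reads in the H2A.Z-mCherry library. The 2 sox10:Kaede reads in the wild type were identical to a sequence with 104 reads in the sox10:Kaede library. Single reads of c636 in c787 and c403, of c787 in c636 and c403, and of c635 in c594 each equalled a sequence found in the own library, with 7 to 316 reads there. Of the 2 c594 reads in c591, 1 equalled a sequence with 39 reads in c594 and 1 differed from the consensus by 5 edits. The single H2A.Z-mCherry read in sox10:Kaede held 17 bases of the flank before residual adapter. The compound library held 3 H2A.Z-mCherry reads, and 1 of them, 28 bases long, carried T13G and equalled a sequence with 4 reads in the H2A.Z-mCherry library. By library, the traces of the c636 and c787 flanks were each in the other's library and in c403.

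Compound B differed from these. It had 23 reads in c787, or 4.09% of that library (2.61 to 6.08%), 14 in c403, or 3.83% (2.11 to 6.33%), 16 in c636, or 1.63% (0.93 to 2.63%), and 4 in c635, or 1.48% (0.40 to 3.74%). By share, the flank was thus higher in c787 and in c403 than in the compound library (2.82%), with overlapping counting intervals in both cases, so its label as a flank of the compound line rests on its read count. In c403 all 14 reads were 23 bases long, a length that 0 of the 446 compound-library reads had. In c635 all 4 were 54 bases long, again a length with 0 reads in the compound library. In c787 all 23 were 39 bases long, where the compound library had 3 reads. Of the 23, 7 equalled the consensus and 16 carried A14G, a substitution that 0 of the compound-library reads had. In c636, 14 of 16 were 25 bases long, where the compound library had 2 reads. The commonest short end in the compound library, at 49 bases, was seen in 0 of the 57 reads, as was the full length of 80 bases. The commonest end of compound B was therefore different in each of the 4 libraries and in the compound library. Compound A had 0 reads outside the compound library, which in c787 allows up to 0.534% of reads and in c403 up to 0.820%.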

How the data were processed

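Flanking sequences were read from 10 libraries of adult tail fin DNA. Per the labels' protocols, fin clips were heated in 25 mM NaOH at 95 °C for 30 minutes and neutralised with 100 mM Tris, with an input of about 100 ng of DNA. In the files deposited by the authors each line is a flanking sequence, without header or coordinates, so reads were counted as lines. The sources used here do not give how sequences were extracted and trimmed, nor a genome build. Libraries held 270 to 149234 lines, of which 163896 in all were of 20 bases or more.

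Members and descriptions were chosen with earlier results of these data known. Edit distances between starts were global over 20 bases (Python 3.11.15, edlib 1.3.9.post1). Member counts used lines as deposited. For lengths and mismatches, residual adapter, read from the data over 19 bases with at most 4 edits or at least 3 bases at a read's end, was removed. Intervals at 95% are exact, by Clopper-Pearson in scipy 1.17.1. Limits for a count of 0 use 3 counts. Assignment was tried on reads simulated from the consensus sequences with random base changes at a low rate. These held no insertions, deletions or adapter, so the trial does not show how reads with those were assigned. With 1 library per line no test between lines was made. The rule for naming genes gave none beyond those in the genotypes, since no reference sequence was used.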

Additional observations from a re-analysis of the deposited data

Results flagged for a closer look

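Lines of 8 to 19 bases were not members and entered above only in alternative counts of end positions and full-length shares. A share of them, which differed widely between flanks, were exact beginnings of the line's flank and of no other. In H2A.Z-mCherry this held for 186 of 193 such lines, or 96.4% (exact 95% interval 92.7 to 98.5%). In c594 it held for 445 of 561, or 79.3% (75.7 to 82.6%), and 347 of the 445 were 9 bases long. In c787 it held for 232 of 367, or 63.2% (58.1 to 68.2%), in c635 for 24 of 63, or 38.1% (26.1 to 51.2%), and for compound B for 154 of 626, or 24.6% (21.3 to 28.2%). The wild-type library had 0 of 20 lines for each of these flanks, which allows up to 15%. The flanks were chosen as frequent in their own libraries and many of these lines had the same length. The values are therefore no test between libraries, and other libraries were not searched for such lines. The 3 other flanks had lower shares in their own libraries. These were 55 of 626 lines, or 8.79%, for compound A, 11 of 231, or 4.76%, for c636 and 59 of 9026, or 0.65%, for sox10:Kaede. In c635 all 24 lines were 16 bases long, and 119 of the 154 of compound B were 15. Of 115 lines of 13 to 19 bases in H2A.Z-mCherry that matched the flank over the first 12 bases, 0 carried T13G.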

How the results depend on the processing

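Of 128 values recomputed, 90 stayed within the interval of the reported value (or, for counts, within 1.5 times), 36 moved and 2 reversed. With a 30-base minimum own-flank shares were 5.57% in compound A, 5.22% in compound B, 0.378% in sox10:Kaede, 82.7% in c636, 56.8% in c787, 38.1% in c594 and 49.5% in c635. By distinct sequences they were 73.8% in H2A.Z-mCherry, 10.97% in compound A, 7.0% in compound B, 0.954% in sox10:Kaede, 69.2% in c636 and 34.3% in c635. Over all lines they were 71.9% in H2A.Z-mCherry, 48.7% in c636, 27.1% in c787, 14.2% in c594 and 32.7% in c635, lower by construction since shorter lines count only in the total. Reads outside the own library were 3 for H2A.Z-mCherry and 30 for compound B with a 30-base minimum. By distinct sequences they were 13 for compound B and 1 for sox10:Kaede. With 6 edits allowed they were 6 for sox10:Kaede and 69 for compound B, the latter within 1.5 times of its 57. Full-length reads of sox10:Kaede were 52.2% when counted from 75 bases. End positions with at least 5 reads were 7 in compound B and 14 in sox10:Kaede. Without its 5 divergent reads c636 matched its consensus at 99.5% of bases. By distinct sequences the own flank exceeded the shared flank in full-length percentage by 11.4 points in H2A.Z-mCherry, 3.54 in compound A, 0.56 in sox10:Kaede, 39.0 in c636, 33.6 in c635, 14.7 in c787 and 13.8 in c594, and the sign turned in compound B (-16.7). With exact beginnings of 8 to 19 bases counted, chosen after seeing the data, the excess was 16.2 points in H2A.Z-mCherry, 31.1 in compound A, 10.95 in compound B and 16.3 in c787, and the sign turned in c594 (-3.06). The cause was not tested. No paired analysis was possible because no group holds more than 1 library. The planned match to reference sequences was not run. Depth limits most in the wild type and c635, where 0 reads allow 1.26% and 1.11%.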
